A study of Gallus gallus with 6 samples.

Results

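Oxidative phosphorylation was examined at 81 loci of the 17340 in the deposited table, chosen by name as those with a gene symbol that begins with NDUFA, NDUFB, NDUFC, NDUFS, NDUFV, UQCR, COX followed by a digit, or ATP5. By name, 62 of these loci are nuclear-encoded subunits: 33 of complex I, 8 of complex III, 9 of complex IV and 12 of ATP synthase. A further 16 are assembly factors of complexes I and IV, 1 is the ATP synthase accessory gene ATP5S, and 2 are the mitochondrially encoded subunits COX1 and COX3. Primary chick lens cells kept for 4 h in dimethyloxalylglycine (DMOG) at 1 mM (3 libraries) were compared with primary lens cells left untreated (3 libraries). All cultures came from lenses of White Leghorn embryos at embryonic day 10, dissociated and grown on laminin. DMOG is an analog of 2-oxoglutarate that blocks the prolyl hydroxylases which mark HIF1α for degradation, but it can also inhibit other enzymes that use 2-oxoglutarate, so these libraries measure a response to the drug and not to HIF1α alone. RNA was measured in bulk, where fewer cells of a type and less RNA per cell cannot be told apart.

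Oxidative phosphorylation couples the oxidation of NADH and succinate to ATP synthesis across the inner mitochondrial membrane. Complex I passes electrons from NADH to ubiquinone, complex III passes them from ubiquinol to cytochrome c, and complex IV hands them to oxygen. ATP synthase then uses the proton gradient built by these complexes. Most subunits are encoded in the nucleus, and a few hydrophobic core subunits of complexes I, III, IV and ATP synthase are encoded in mitochondrial DNA. Assembly factors build and equip the complexes without staying in them. In the lens, epithelial cells hold mitochondria, which are removed as fiber cells mature. In mammalian cells HIF1 is known to shift energy metabolism toward glycolysis, and hypoxia also induces isoforms of some subunits.

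Levels are FPKM, fragment counts scaled for transcript length and library size, so they can be compared between genes. Differences are log2 fold changes of log2(FPKM + 0.5), DMOG over untreated, from limma with a mean-variance trend, and they understate the change of loci near 0. Tests covered the 9816 loci whose 6-library mean reached 1 FPKM, including 74 of the 81 chosen loci. A locus was counted as changed when its log2 fold change was at least 0.60 in either direction with an unadjusted p under 0.05, the limits of the study's methods. Adjusted p-values (Benjamini-Hochberg) took in all 9816 loci. Read depth is not given by FPKM, so precision rests on the spread between libraries.

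The libraries carried the treatment. Of 8 hypoxia-responsive genes tested as a check, 7 were higher at the limits, against 2.84% of all tested loci. With limma, 3 of the 8 had an adjusted p under 0.05. The largest fitted change among them was that of EGLN3, a HIF prolyl hydroxylase (52.9 ± 4.87 FPKM with DMOG and 1.76 ± 0.368 FPKM without it, SD, n = 3 each). PDK1, the kinase that restrains pyruvate entry into mitochondria, measured 21.4, 9.7 and 16.5 FPKM with DMOG and 19.2, 22.25 and 18.5 FPKM without it, with overlapping values. Lens markers were present: 5 lens epithelial markers summed to 226.8 to 335.2 FPKM with DMOG and 219.5 to 366.65 FPKM without it, mostly from CRYAB. The 11 lens fiber markers summed to 1007 to 1593 FPKM with DMOG and 1102 to 1728 FPKM without it. Most of this came from CRYAA and from ASL1, a locus joined with ASL2 and GUSB. The sum therefore does not give the level of the other fiber markers, some of which were far lower. Of the epithelial markers GJA1, a gap junction protein, was lower at the limits, at 26.1, 24.5 and 32.9 FPKM with DMOG and 57.5, 32.3 and 41.1 FPKM without it (log2 fold change -0.61, SE 0.25, limma adjusted p 0.537), with overlapping values. The 5 matched erythroid genes summed to 8.12 to 11.6 FPKM with DMOG and 10.0 to 12.9 FPKM without it, all of it from ALAS2, since the 4 globin loci are listed at 0. With DMOG, 8 mesenchymal markers summed to 3.56 to 8.09 FPKM, 3 endothelial markers to 7.04 to 10.5 FPKM, 7 retinal and neuronal markers to 3.69 to 5.54 FPKM, 3 macrophage markers to 5.25 to 8.6 FPKM (mostly from PTPRC, whose locus is joined with NEK7) and 3 pigment cell markers to at most 0.06 FPKM. Without it the same lists summed to 6.68 to 10.5, 7.57 to 13.5, 2.95 to 4.33, 8.31 to 10.6 and at most 0.1 FPKM. Of these lists TWIST1, LUM and PMEL are listed at 0 in all libraries, but other markers were detected in all 6. Mesenchymal PDGFRA measured 2.20 to 6.40 FPKM, and endothelial CDH5 and PECAM1 4.09 to 7.99 and 2.21 to 4.92 FPKM. Small RNA loci took 24.8% to 37.4% of the summed FPKM with DMOG and 24.0% to 28.7% without it, and the median log2 fold change of all tested loci was -0.13. After scaling of the libraries to a common median this shift was -0.0073, and the share of higher loci among the changed ones was 56.9% in place of 36.4%. Group medians are therefore given relative to the shift as well.

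Few transcripts of the 4 complexes differed between DMOG-treated and untreated cells beyond the spread of the libraries, and 12 of 14 tested assembly factors had fitted changes below 0, as did 6252 of all 9816 tested loci. Of the 74 tested loci, 5 (6.76%) were lower at the limits, against 4.97% of all tested loci, and 0 were higher, against 2.84%. The share of lower loci was thus near the background. With median scaling, 3 of the 74 were lower, against 3.23% of all tested loci, and 0 were higher, against 4.26%. The lower loci were the complex I subunits NDUFS6 and NDUFB10 and the assembly factors NDUFAF7, NDUFAF1 and COX11. With limma, 0 of the 74 had an adjusted p under 0.05, against 0.194% of all tested loci, and 5 had an unadjusted p under 0.05, against 9% of all tested loci. Every DMOG library lay below every untreated library at 6 of the 74 loci, against 11.4% of all tested loci, and above at 0 of the 74, against 4.47%.

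The median log2 fold change was 0.049 over the 60 tested subunits, which is 0.18 above the median of all tested loci, and -0.38 over the 14 tested assembly factors, which is 0.25 below it. Over all 74 loci it was -0.0023. Among subunits 34 values were above 0 (56.7%) and 26 below, and among assembly factors 2 were above 0 (14.3%) and 12 below, against 36.3% above 0 over all tested loci. In the level range of the assembly factors, 66.1% of all tested loci were below 0. For 13 of the 60 subunits (21.7%) the 95% interval of the log2 fold change lay wholly between -0.60 and 0.60, which held for 8.81% of all tested loci. For the other subunits the interval reached past 0.60 in at least 1 direction. The subunits had higher levels than most loci. Above 12.6 FPKM the interval lay within these bounds for 36.4% of 33 subunits and 24.7% of 2235 tested loci. From 1.72 to 12.6 FPKM it did so for 4% of 25 subunits and 4.90% of 6406 tested loci.

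**Figure D1:**
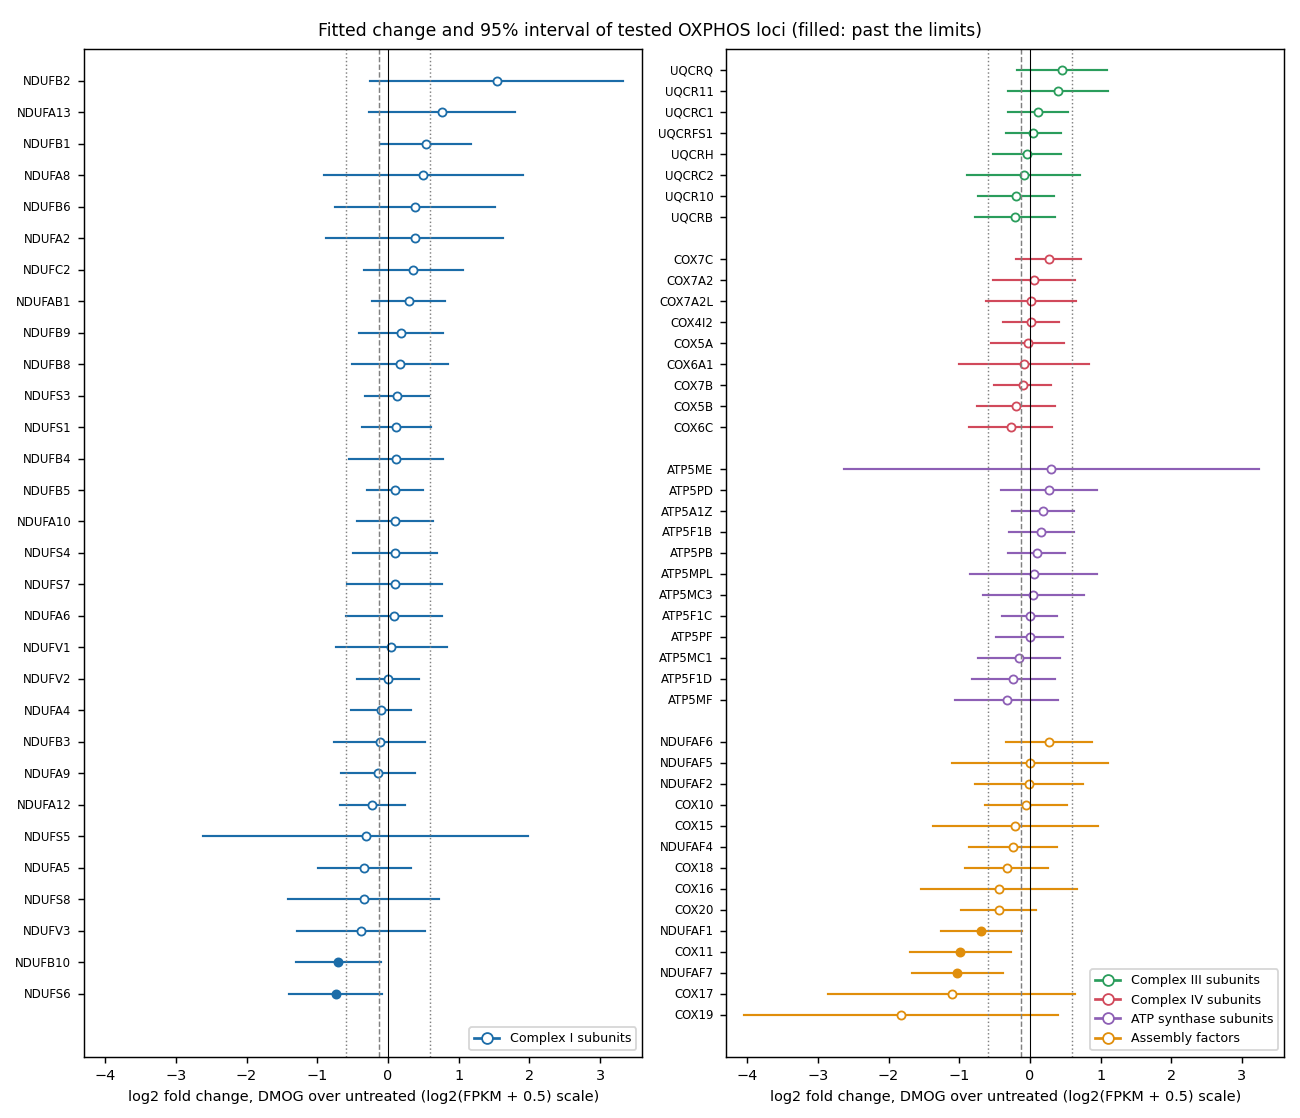
Fitted log2 fold change, DMOG over untreated, on the log2(FPKM + 0.5) scale (horizontal axis) for the tested loci, leaving out 1 complex I locus, with complex I on the left and the other groups on the right. Points are estimates, lines are 95% intervals, dotted lines mark -0.60 and 0.60 and the dashed line the median of all tested loci (-0.13). Filled points passed the limits, and all 5 of them lie left of 0.

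**Figure D2:**
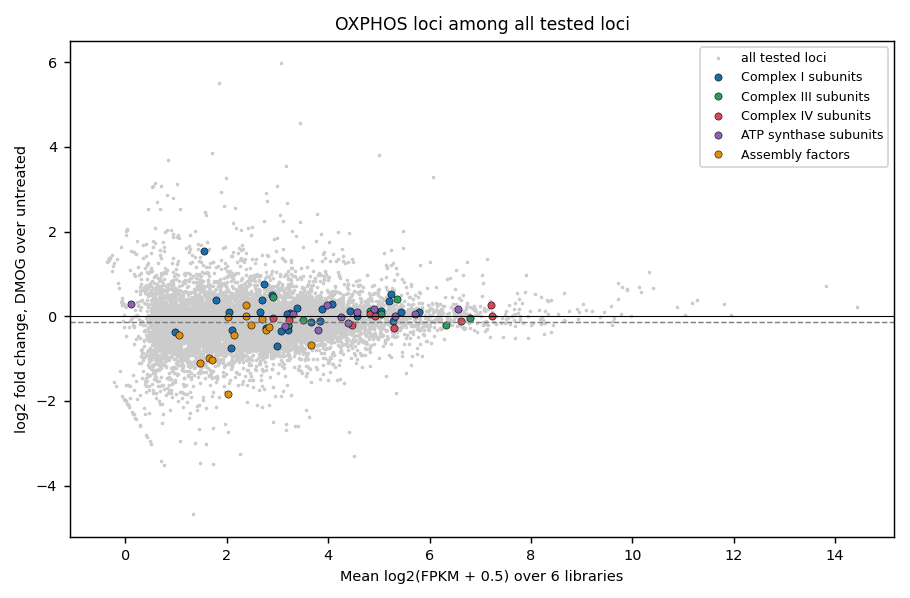
Log2 fold change, DMOG over untreated (vertical axis), against the mean log2(FPKM + 0.5) over 6 libraries (horizontal axis) for all 9816 tested loci in gray and the 74 tested oxidative phosphorylation loci in color. The dashed line is the median of all tested loci (-0.13). The colored loci above a mean of 12.6 FPKM are all subunits and stay between -0.33 and 0.53, while the assembly factors lie at lower means.

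Complex I had the most loci and the widest range of changes, from -0.74 to 1.54, with a median log2 fold change of 0.099 over 31 tested subunits, 0.23 above that of all tested loci. NDUFS6, a zinc-binding subunit of the peripheral arm, measured 3.22, 3.15 and 2.07 FPKM in the DMOG libraries, against 4.91, 4.01 and 6.15 FPKM in the untreated libraries. All DMOG values lay under all untreated values, and the log2 fold change was -0.74 (SE 0.28, limma adjusted p 0.514). NDUFB10, a subunit of the membrane arm, measured 7.21, 4.86 and 5.38 FPKM with DMOG, against 12.5, 7.78 and 9.26 FPKM without it, again with no overlap. Its log2 fold change was -0.70 (SE 0.26, limma adjusted p 0.489). These were the only complex I subunits that passed the limits.

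Neither call held throughout. NDUFS6 no longer passed with DMOG library 3 omitted (-0.57), nor with untreated library 1 (-0.74) or 3 (-0.60) omitted. NDUFB10 no longer passed with DMOG library 2 (-0.59) or 3 (-0.66) or untreated library 1 (-0.53) or 3 (-0.73) omitted, nor with median scaling (-0.58) or quantile normalization (-0.60).

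The 7 nuclear core subunits, which carry the electron path, had fitted changes from -0.35 to 0.13. NDUFS1, the largest subunit, which holds iron-sulfur clusters, measured 25.8, 23.4 and 17.9 FPKM with DMOG and 22.0, 17.1 and 22.2 FPKM without it, a log2 fold change of 0.12 with a 95% interval from -0.37 to 0.61. NDUFV1, which binds NADH and its flavin, measured 12.03, 9.32 and 5.87 FPKM with DMOG and 8.47, 5.95 and 11.7 FPKM without it. Its log2 fold change was 0.049, and the interval from -0.74 to 0.83 leaves room for a change past 0.60 in either direction. For NDUFS3 and NDUFV2 the intervals were narrower, from -0.33 to 0.58 and from -0.44 to 0.44. NDUFS7 and NDUFS8, also core subunits, had fitted changes of 0.095 and -0.35, with intervals that reached past 0.60 on at least 1 side.

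Among the supernumerary subunits, which surround the core, NDUFB2 had the highest fitted change of the 74 loci. It measured 2.75, 4.14 and 7.92 FPKM with DMOG and 2.26 and 3.23 FPKM in untreated libraries 2 and 3, with untreated library 1 listed at 0. These ranges overlap. Its fitted log2 fold change, 1.54 (SE 0.77, limma adjusted p 0.593), did not pass. It passed without untreated library 3 (2.10) and with the replicate number as a block. NDUFA13, also known as GRIM19, measured 9.25, 9.38 and 6.12 FPKM with DMOG and 3.13, 2.97 and 9.85 FPKM without it. Its log2 fold change of 0.76 (SE 0.44) passed only without untreated library 3 (1.28), the highest value of the 6.

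NDUFB1 measured 30.0, 55.6 and 55.3 FPKM with DMOG and 28.6, 36.8 and 28.5 FPKM without it (log2 fold change 0.53, SE 0.27). NDUFC2 had the same shape, at 25.45, 50.7 and 53.65 FPKM with DMOG and 33.1, 27.6 and 35.5 FPKM without it (log2 fold change 0.36, SE 0.30). In both genes DMOG libraries 2 and 3 were above all untreated libraries, while DMOG library 1 was within the untreated range for NDUFB1 and below it for NDUFC2. Without DMOG library 1 both passed the limits (0.83 for NDUFB1 and 0.70 for NDUFC2), and NDUFA5, at 11.5, 5.38 and 7.25 FPKM with DMOG and 9.60, 9.40 and 10.4 FPKM without it, passed in the opposite direction (-0.61). These 4 genes, NDUFA13, NDUFB1, NDUFC2 and NDUFA5, were singled out after their values were seen. NDUFA4, named as a complex I gene but found in complex IV in mammals, averaged 37.2 ± 3.48 FPKM with DMOG and 40.3 ± 6.64 FPKM without it (SD, n = 3 each), with a 95% interval of the log2 fold change from -0.53 to 0.32. NDUFA4L2, its hypoxia-inducible relative in mammals, matched no locus name and was not analysed here.

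Complex III was represented by 8 subunits, all tested, with 0 past the limits, against 2.84% higher and 4.97% lower of all tested loci. In so few loci a count of 0 is near these shares. The median log2 fold change was -6.4e-04 (0.12 with median scaling), 0.13 above that of all tested loci. UQCRFS1, the Rieske iron-sulfur protein that takes electrons from ubiquinol, measured 30.65, 32.35 and 36.2 FPKM with DMOG and 34.2, 33.5 and 28.5 FPKM without it. The conditions overlap and the 95% interval of the log2 fold change ran from -0.34 to 0.43. UQCRC1, a core protein, averaged 29.3 ± 2.97 FPKM with DMOG and 27.1 ± 3.55 FPKM without it (SD, n = 3 each), with an interval from -0.31 to 0.53.

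The small subunits UQCRQ and UQCR11 had the highest fitted changes of the complex. UQCRQ measured 8.11, 6.82 and 10.3 FPKM with DMOG and 7.60, 4.33 and 6.32 FPKM without it, and its log2 fold change, 0.45 (SE 0.27, limma adjusted p 0.668), did not pass. UQCR11 measured 32.4, 43.2 and 72.6 FPKM with DMOG and 41.4, 36.3 and 29.1 FPKM without it, so DMOG library 3 stood far above the rest. The lowest change, -0.21 (SE 0.24), was at UQCRB, which shares its locus with MTERF3, so its FPKM is that of the pair. UQCRH was the most abundant member of the complex, at 110.0 ± 18.7 FPKM with DMOG and 113.9 ± 21.3 FPKM without it (SD, n = 3 each).

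Complex IV included the most abundant transcripts of the whole group. The locus listed as COX4I2 measured 158.0, 134.3 and 161.7 FPKM with DMOG and 131.6, 150.3 and 169.5 FPKM without it. The values of the conditions interleave, and the log2 fold change was 0.011 with a 95% interval from -0.38 to 0.41. In mammals COX4I2 is the hypoxia-induced isoform of subunit 4 and COX4I1 the ubiquitous isoform. In the chicken RefSeq annotation (assembly GRCg7b), however, COX4I2 is a synonym of COX4I1, and no separate locus named COX4I1 is in the table, so this locus cannot be read as a test of the isoform switch.

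COX7C, a small single-pass subunit, had the highest fitted change of complex IV, at 154.2, 138.3 and 197.2 FPKM with DMOG and 136.2, 153.5 and 116.3 FPKM without it. The log2 fold change of 0.26 (SE 0.20, limma adjusted p 0.731) did not pass. COX6C had the lowest, at 48.8, 30.1 and 30.2 FPKM with DMOG and 42.0, 35.4 and 53.0 FPKM without it (log2 fold change -0.27, SE 0.25, limma adjusted p 0.779). COX5A, which sits beside subunit 4, had 6.95 ± 0.769 FPKM with DMOG and 7.15 ± 1.21 FPKM without it (SD, n = 3 each), a 95% interval from -0.55 to 0.48, and COX7B had an interval from -0.50 to 0.30. COX7A2 averaged 28.7 ± 5.48 FPKM with DMOG and 27.9 ± 7.53 FPKM without it, and COX7A2L, which joins complexes III and IV into supercomplexes, averaged 31.0 ± 9.45 FPKM with DMOG and 30.2 ± 6.40 FPKM without it (SD, n = 3 each). COX7A1, the isoform of mammalian muscle, matched no locus name. Over the 9 subunits, 0 passed the limits, against 2.84% higher and 4.97% lower of all tested loci. Their median log2 fold change was -0.032 (0.091 with median scaling and 0.015 with quantile normalization), 0.098 above that of all tested loci.

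ATP synthase had 12 tested subunits, 0 of them past the limits, against 2.84% higher and 4.97% lower of all tested loci. Their median log2 fold change was 0.052, 0.18 above that of all tested loci. The catalytic head is built from the alpha and beta subunits. The alpha subunit locus ATP5A1Z, the copy of the Z chromosome by its name, measured 105.0, 103.5 and 90.7 FPKM with DMOG and 78.0, 78.6 and 109.7 FPKM without it. Its log2 fold change was 0.18 with a 95% interval from -0.26 to 0.62, and untreated library 3 held the highest value of the 6. No locus carried the name of the W copy, and SPIN1W, the only one of 10 W-linked names found, averaged 2.68 ± 0.332 FPKM with DMOG and 2.42 ± 0.607 FPKM without it (SD, n = 3 each). The beta subunit ATP5F1B shares a locus with PTGES3, NACA and a small RNA. That locus averaged 31.3 ± 4.64 FPKM with DMOG and 27.9 ± 4.62 FPKM without it (SD, n = 3 each), a level that belongs to the joined genes together.

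The central stalk subunit ATP5F1C measured 37.9, 46.2 and 35.4 FPKM with DMOG and 39.7, 39.5 and 39.6 FPKM without it, with a 95% interval of the log2 fold change from -0.39 to 0.39. ATP5MF had the lowest fitted change, at 15.0, 9.37 and 12.2 FPKM with DMOG and 9.69, 19.5 and 18.5 FPKM without it (log2 fold change -0.33, SE 0.31). It passed the limits only without untreated library 1 (-0.64). The highest fitted change, 0.30 (SE 1.26), was at ATP5ME, which measured 6.32 FPKM in DMOG library 1 and 3.15 FPKM in untreated library 2 and is listed at 0 in the other libraries, so it gives no usable comparison. Without DMOG library 1 its sign changed (-0.96). ATP5IF1, the inhibitor of the reverse reaction, matched no locus name.

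**Figure D3:**
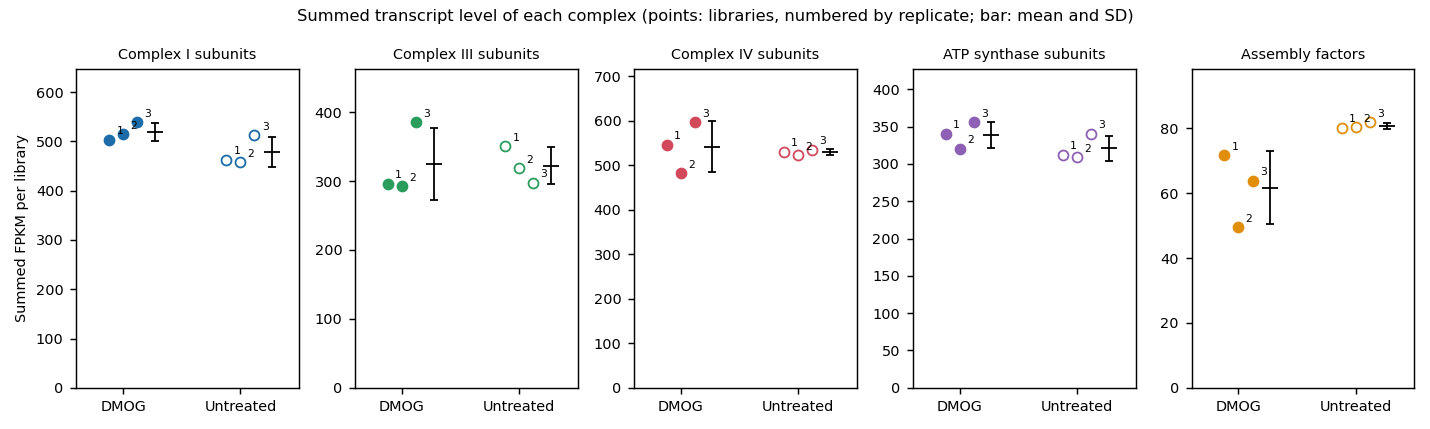
Summed FPKM per library (vertical axes, from 0) for the loci of each complex and for the assembly factors, with the 3 DMOG libraries left of the 3 untreated libraries. Points are libraries numbered by replicate, and bars are mean and SD. The conditions overlap for each complex. They do not overlap for the 16 assembly factors named NDUFAF or COX, at 49.5 to 71.6 FPKM with DMOG and 80.1 to 81.8 FPKM without it. That sum includes the loci lower at the limits. The 25 other assembly factors matched by name, not drawn, overlap, at 191.4 to 223.4 FPKM with DMOG and 198.5 to 215.5 FPKM without it.

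Summed over each complex, transcript levels differed by less than 10% between the means of the conditions. Complex I subunits summed to 503.4, 515.2 and 538.7 FPKM with DMOG and 463.2, 457.6 and 512.6 FPKM without it, a ratio of means of 1.09. Complex III subunits summed to 324.5 ± 52.5 FPKM with DMOG and 322.3 ± 26.6 FPKM without it, complex IV subunits to 541.9 ± 56.9 FPKM with DMOG and 529.3 ± 6.65 FPKM without it, and ATP synthase subunits to 339.0 ± 17.6 FPKM with DMOG and 320.8 ± 17.2 FPKM without it (SD, n = 3 each). All subunits together made up 1.26% ± 0.173 of the FPKM outside small RNA loci with DMOG and 1.21% ± 0.0662 without it (SD, n = 3 each).

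The 16 assembly factors named NDUFAF or COX are only part of the known ones. Their summed level was 71.6, 49.5 and 63.9 FPKM with DMOG and 80.1, 80.3 and 81.8 FPKM without it, with no overlap. It stayed separate without COX17 and COX19, which were singled out after their values were seen (47.8 to 63.5 FPKM with DMOG and 67.7 to 71.6 FPKM without it). Of the 14 tested, 3 were lower at the limits (21.4%, against 4.97% of all tested loci), 0 were higher, and at 4 the DMOG values all lay under the untreated values. Relative to the FPKM outside small RNA loci, the sum was 503.2, 350.1 and 496.9 ppm with DMOG and 607.2, 621.8 and 551.1 ppm without it, again with no overlap. These sums include the 3 loci lower at the limits and were not taken without them, so their separation is not a result apart from those calls. The difference between assembly factors and subunits was not tested. Assembly factors had low levels, and 29.4%, 33.0% and 35.9% of all loci were listed at 0 in DMOG libraries 1, 2 and 3, against 30.5%, 25.5% and 25.2% in untreated libraries 1, 2 and 3. The part of these in the result was not tested. In the level range of the assembly factors, from 1.72 to 12.6 FPKM, 5.81% of the 6406 tested loci were lower at the limits, 12.4% had all DMOG values under all untreated values, and the median log2 fold change was -0.16. The 25 subunits in this range had a median of -0.032, with 2 lower and 0 higher. The median of the assembly factors was negative under every scaling, at -0.26 with median scaling, -0.22 with quantile normalization and -0.39 with the small RNA loci left out of the scaling.

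NDUFAF7, a methyltransferase that acts during complex I assembly, measured 1.84, 1.77 and 1.73 FPKM with DMOG, against 3.59, 3.75 and 5.25 FPKM without it. The 3 DMOG libraries were nearly equal and all lay below the untreated ones. The fitted log2 fold change, -1.03 (SE 0.28, limma adjusted p 0.328), stayed between -1.12 and -0.87 over the 6 omissions of a single library and passed the limits in each. NDUFAF1, a scaffold of the early membrane arm of complex I, measured 10.3, 7.04 and 11.4 FPKM with DMOG, against 15.2, 13.1 and 18.5 FPKM without it, and these do not overlap. Its log2 fold change, -0.69 (SE 0.25, limma adjusted p 0.477), no longer passed with DMOG library 2 (-0.49) or untreated library 1 (-0.70) or 3 (-0.56) omitted, nor with median scaling (-0.57).

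COX11, which delivers copper to the CuB site of COX1, measured 2.38, 1.44 and 1.51 FPKM with DMOG, against 4.19, 3.16 and 4.59 FPKM without it. The conditions were again separate, and the log2 fold change was -0.99 (SE 0.31, limma adjusted p 0.415). Without untreated library 3 it no longer passed (-0.89). COX20, a chaperone of COX2 singled out after its values were seen, measured 3.63, 3.04 and 3.14 FPKM with DMOG and 4.96, 4.37 and 4.52 FPKM without it. These values do not overlap either, but the log2 fold change of -0.44 (SE 0.23, limma adjusted p 0.612) did not reach the limits.

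COX19 and COX17, small copper-handling proteins of the intermembrane space, were also singled out after their values were seen and had, among the 14 tested assembly factors, the most negative fitted changes with the widest errors. COX19 measured 11.2, 0.76 and 0.18 FPKM with DMOG and 8.66, 8.35 and 5.02 FPKM without it. COX17 measured 5.5, 1.03 and 0.24 FPKM with DMOG and 2.01, 4.22 and 5.25 FPKM without it. In both genes DMOG library 1 was the highest of the 6 libraries and DMOG libraries 2 and 3 were the lowest. The log2 fold changes were -1.83 (SE 0.95) and -1.11 (SE 0.75) and did not pass, but without DMOG library 1 they were -3.05 and -1.94 and passed. COX10 and COX15, which make the heme A of complex IV, had fitted changes of -0.056 and -0.21. NDUFAF6 and NDUFAF5 were the tested assembly factors with values above 0, at 0.27 (SE 0.26) and 0.0056 (SE 0.47).

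**Figure D4:**
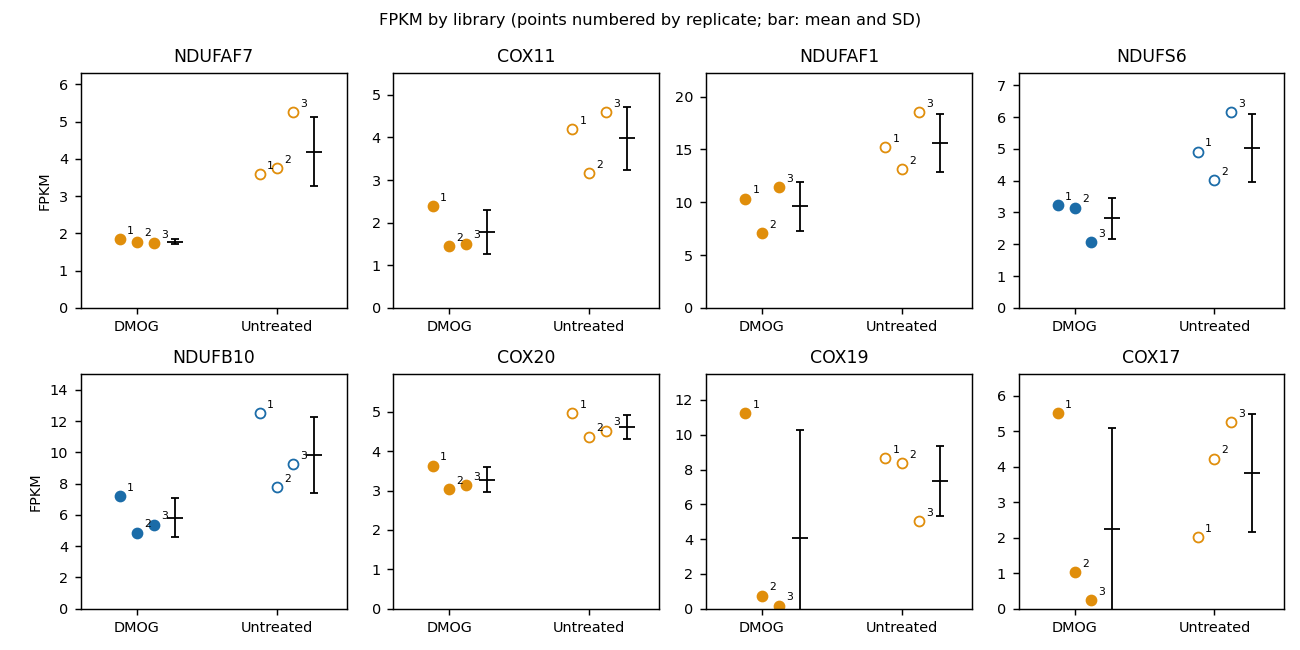
FPKM per library (vertical axes, from 0) of the 5 loci that passed the limits, NDUFAF7, COX11, NDUFAF1, NDUFS6 and NDUFB10, and of COX20, COX19 and COX17, with DMOG left of untreated. Points are libraries numbered by replicate, and bars are mean and SD, drawn only above 0. In the panels other than COX19 and COX17 the 3 DMOG libraries lie below the 3 untreated libraries.

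For all but 2 of the 60 tested subunits the values of the conditions overlapped, where 11.4% of all tested loci had the DMOG values all below and 4.47% all above the untreated ones. Libraries of the same condition differed among themselves. The 7 nuclear core subunits of complex I, grouped after their values were seen, deviated from their 6-library means by a median of 0.28, 0.12 and -0.24 on the log2 scale in DMOG libraries 1, 2 and 3, and by 0.056, -0.24 and 0.093 in untreated libraries 1, 2 and 3. Complex III ran the other way in DMOG library 3, with median deviations of -0.079, -0.022 and 0.22 with DMOG and 0.087, -0.11 and -0.15 without it. DMOG library 3 held the highest value of the 6 for 20 of the 60 tested subunits and the lowest for 11 of them, and it had the largest share of FPKM in small RNA loci (37.4%). The part of that share in these levels was not tested. NDUFS8 and NDUFV1, which lie on the same chromosome with 16 protein-coding genes between them in the GRCg7b annotation, had similar profiles. NDUFS8 measured 12.3, 7.44 and 3.50 FPKM with DMOG and 9.98, 5.77 and 12.2 FPKM without it. DMOG library 1 and untreated library 3 were highest in both genes and DMOG library 3 lowest. The median deviations of all tested loci had the same extremes (0.059, 0.18 and -0.15), so this shape was not particular to the pair. NDUFB4 and COX17, with 5 protein-coding genes between them, had unlike profiles. Across DMOG libraries 1, 2 and 3 NDUFB4 rose and COX17 fell. Other neighboring pairs among the chosen loci are not described, and a link between position and profile was not tested.

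**Figure D5:**
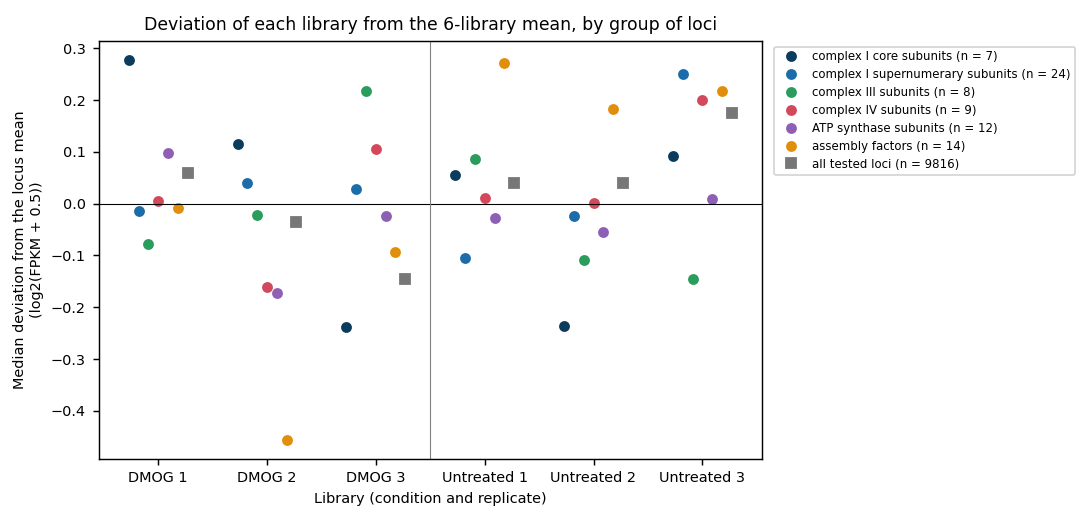
Median deviation of each library from the 6-library mean of each locus, on the log2(FPKM + 0.5) scale (vertical axis), for each group of loci, with the 3 DMOG libraries left of the 3 untreated libraries. Squares are all 9816 tested loci. These are above 0 in each untreated library (0.041 to 0.18) and in DMOG library 1 (0.059), and below 0 in DMOG libraries 2 and 3 (-0.036 and -0.15). The 14 assembly factors, all named NDUFAF or COX, are above 0 in each untreated library (0.18 to 0.27) and below 0 in each DMOG library (-0.46 to -0.0080). Each subunit group crosses 0 within both conditions, except complex IV, which is above 0 in each untreated library.

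No other gene of the pathway listed by name passed the limits, where 2.84% of all tested loci were higher and 4.97% lower. The 4 subunits of complex II, succinate dehydrogenase, were all tested with 0 past the limits, and SDHA, its flavoprotein, averaged 19.8 ± 3.44 FPKM with DMOG and 22.1 ± 2.25 FPKM without it (SD, n = 3 each). CYCS, cytochrome c, averaged 62.4 ± 7.47 FPKM with DMOG and 74.0 ± 5.71 FPKM without it (SD, n = 3 each), a log2 fold change of -0.25 with a 95% interval from -0.63 to 0.14. Of 40 other assembly factors listed by name, 25 were matched and 24 tested, 0 passed in either direction, 12 fitted changes were above 0 and 12 below, and their median was 0.0064. No test was made between this list and the factors named NDUFAF or COX. Of 14 regulators of mitochondrial biogenesis, 12 were tested and 0 passed, with a median of -0.098. GABPB1, a subunit of the factor NRF2 that binds promoters of many respiratory genes in mammals, had the most negative fitted change (-1.06, SE 0.46, limma adjusted p 0.557). It measured 3.94, 3.51 and 0.93 FPKM with DMOG and 5.06, 4.87 and 7.16 FPKM without it. All DMOG values lay below all untreated values, as at 11.4% of all tested loci. MYC had the most positive fitted change (1.02, SE 0.56, limma adjusted p 0.625). It measured 16.9, 18.3 and 24.4 FPKM with DMOG and 3.75, 9.3 and 22.9 FPKM without it, with overlapping values. Both genes were singled out after their values were seen. LONP1, the matrix protease that degrades COX4I1 in hypoxic mammalian cells, averaged 18.9 ± 6.22 FPKM with DMOG and 13.4 ± 4.10 FPKM without it (SD, n = 3 each).

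The remaining 7 loci were too low to test. COX1 and COX3 are listed at 0 in all 6 libraries, as are the other mitochondrially encoded subunits found by name, 12 in all. Every respiring cell expresses these genes, so the zeros say only how they are listed. NDUFAF8 and COX14 are also listed at 0 throughout. NDUFA1 measured 0.71 FPKM in untreated library 2 only. NDUFB7 measured 2.60 and 0.99 FPKM in untreated libraries 1 and 3, and ATP5S 1.36 and 0.58 FPKM in untreated libraries 2 and 3, and both are listed at 0 in every DMOG library.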

How the data were processed

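RNA-seq was available for 3 DMOG-treated and 3 untreated libraries of total RNA. According to the methods and the submitters' processing notes, the authors removed adaptors and poor bases (Cutadapt), aligned the reads to the galGal6 genome (Bowtie2, HISAT2), built transcripts (StringTie, gffcompare) and estimated levels (edgeR). Tool versions and filters on low values are not given in the sources used here. The authors deposited FPKM per library, rounded to 2 decimals. The deposited fold change, log2 fold change and p-value are the authors' own comparison and were not used. A locus can join several genes, as 4 of the 81 loci do, and its FPKM cannot be divided. FPKM carries no read depth, so no counting interval was computed.

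log2(FPKM + 0.5) was modeled per locus by treatment alone, using limma 3.58.1 under R 4.3.3 and a mean-variance trend, where the 6-library mean reached 1 FPKM. Summaries used Python 3.11.15 with pandas 2.3.3 and numpy 2.4.6, and plots matplotlib 3.10.9. The fit was tested on simulated data. The methods call the libraries biological triplicates without saying whether each came from a separate preparation of lenses, so p-values measure the spread between these libraries. Symbols were looked up in RefSeq (assembly GRCg7b), where 67 loci matched by symbol, 9 by a synonym and 5 not at all. Genes described singly were every locus past the limits, the highest and lowest change of each complex, and a fixed list of catalytic subunits and isoforms, 23 in all. Another 7, and all further loci given singly by level, interval or fitted change, were added after their values were seen. Values of 1 subunit and 1 marker are not reported here singly. Members and lists were chosen with earlier results of these data known. Alternatives were the pseudocount, the filter, 3 scalings, the moderation, array weights, a replicate block, no joined loci, and leaving out each library.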

Additional observations from a re-analysis of the deposited data

How the results depend on the processing

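The number of lower loci among the 74 was 5. It was 3 with median scaling. At means from 5 FPKM upward only 61 of the chosen loci were tested and 2 were lower, since NDUFS6, COX11 and NDUFAF7 fell below that filter. Omission of a single library gave 1 to 8 lower loci, 0 to 2 higher loci and 0 with a limma adjusted p under 0.05. The count of 8 came without DMOG library 1, where the count over the whole table also rose. Lower loci over the whole table numbered 488 of 9816 tested, with 317 after median scaling and 774 without DMOG library 1. At means from 5 FPKM upward they numbered 231 of 5539 tested. Higher loci over the whole table numbered 279, with 418 after median scaling. Medians of the groups moved by less than the spread of the library medians of the 74 loci, 0.163 on the log2 scale, under each alternative run. The assembly factors came close to this limit with quantile normalization, at -0.222 in place of -0.382. With single omissions the median ranged from -0.059 to 0.059 over the 74 loci and from -0.51 to -0.26 over the assembly factors.

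Deviations of same-numbered libraries correlated at -0.11, -0.17 and -0.23 across loci, and those of differently numbered libraries at -0.0068 to 0.16. Same-numbered libraries were thus the less alike, which gave no sign of pairing by replicate number. The methods do not say whether the numbers mark shared preparations, and these correlations cannot settle it. With the replicate block the higher count was 1 (NDUFB2) in place of 0 and the lower count 5, with 4 of the earlier calls kept, NDUFS6 lost and COX19 gained.

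Small fitted changes changed sign. With median scaling NDUFA4 was 0.019 and COX5A 0.091. With quantile normalization COX4I2 was -0.048 and COX5A 0.078, and COX4I2 was -4.2e-04 with small RNA loci left out of the scaling. With array weights UQCRFS1 was -0.013 and COX7A2L -0.099. Omission of a single library gave -0.96 to 1.26 for ATP5ME, -0.0019 to 0.27 for NDUFS1, -0.18 to 0.32 for NDUFV1, -0.18 to 0.027 for NDUFA4, -0.036 to 0.097 for UQCRFS1, -0.081 to 0.10 for COX4I2, -0.14 to 0.084 for COX5A, -0.13 to 0.25 for COX7A2 and -0.20 to 0.23 for COX7A2L. The cause was not tested.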
